A study of Mus musculus with 6 samples.

Results

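The desmosome components examined here were 10 genes, the desmogleins Dsg1a, Dsg1b, Dsg2 and Dsg3, the desmocollins Dsc1, Dsc2 and Dsc3, and the plaque proteins Dsp, Jup and Pkp1. They were chosen by gene symbol, and all 10 were found among the 23361 genes of the table. RNA came from cells harvested from the circumvallate and foliate papillae (CV/Fol) of C57BL/6 mice, with 3 pools of 4 mice at 2 months of age and 3 pools of 3 mice at 6 months. No other treatment or genotype, and no sex, is given for either age, and the series' design text names 3 months in place of 2 in one passage. Each gene had 1 FPKM value per age (a count of fragments scaled by transcript length and by the size of the library), which the authors computed over the 3 pools of that age. Values of single pools were not used here, so no SD, no interval and no test stands behind any difference below, and the sequencing depth is unknown. A difference is therefore a difference between 2 pooled values.

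Desmosomes are the spot-like junctions that bind epithelial cells to each other and anchor their keratin filaments. Desmogleins and desmocollins are transmembrane cadherins that meet those of the neighbouring cell in the presence of calcium. Inside the cell, plakoglobin (Jup) and a plakophilin such as Pkp1 bind the cadherin tails, and desmoplakin (Dsp) links this plaque to keratin. In skin, Dsg3 and Dsc3 are best known from the lower layers, and Dsg1 and Dsc1 from the upper, differentiating layers. In which layers of the tongue epithelium each gene is expressed was not examined here. The cells studied here were released with collagenase and dispase and then held in a solution without calcium, and the tissue was returned to a solution with calcium for harvest.

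At both ages most of the desmosome genes were abundant, with Dsg2 near the middle of the expressed genes, and none of the 10 differed by 1.5-fold between 2 and 6 months. A gene was counted as different when its value of log2(FPKM + 1) differed by at least 0.585, which is 1.5-fold on that scale. Of the 10 members, 0 were lower and 0 were higher by that measure, where 1.72% of the 12652 expressed genes were lower and 1.05% were higher. Expressed means here that the average of both ages was 1 FPKM or more, which held for all 10 members. With so few genes past 1.5-fold in the whole table, a count of 0 among 10 genes does not set the members apart. The direction was mostly upward, since 8 of the 10 members had a higher value at 6 months, where 46.3% of all genes had one. Scaling the 6 month values to the same upper quartile, or to a median difference of 0, made this 9 of 10. The median log2 difference of the members was 0.13, beside a median of -0.01 and quartiles of -0.10 and 0.08 over the expressed genes. Summed over the 10 genes, the members had 2435 FPKM in 2-month-old and 2739 FPKM in 6-month-old mice, a ratio of 1.13.

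The order of the 10 levels was the same at both ages, running from Pkp1 through Dsp, Jup, Dsc2, Dsg3, Dsc3, Dsg1a, Dsc1 and Dsg1b to Dsg2. Pkp1 had 60.9 times the level of Dsg2 at 2 months and 75.2 times at 6 months. Without a spread between pools, it cannot be said which neighbours in this order, such as Pkp1 and Dsp, differ.

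**Figure D1:**
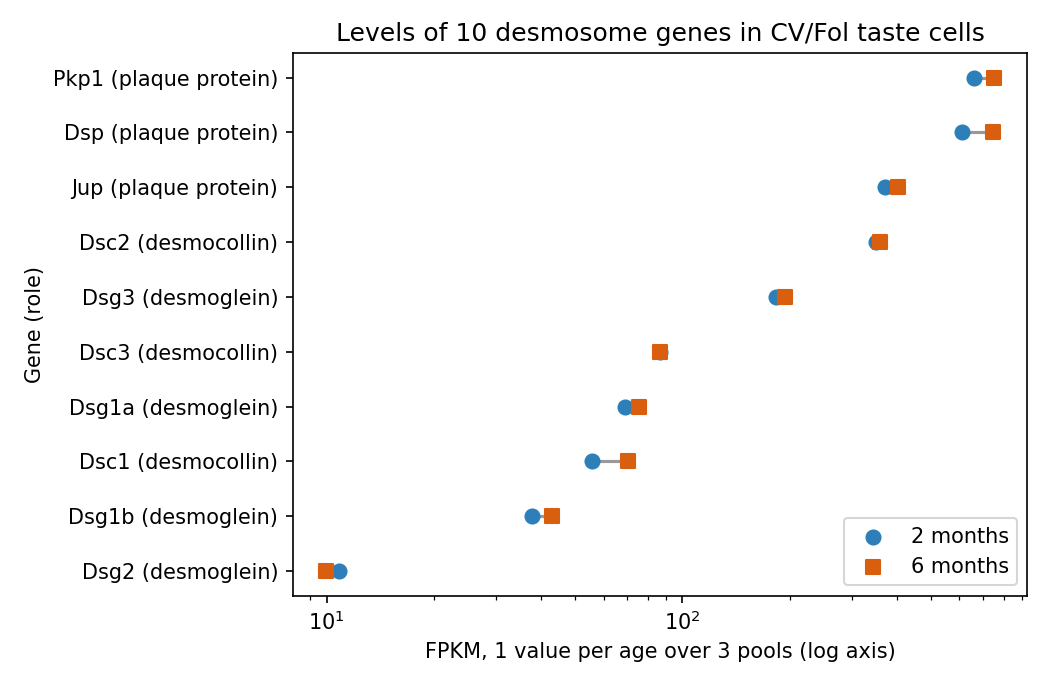
Level of each desmosome gene in FPKM on a log axis, with a circle for the value at 2 months and a square for the value at 6 months, each 1 value over 3 pools without an error bar. The members run from about 10 FPKM for Dsg2 to 751 FPKM for Pkp1, and the squares lie to the right of the circles for 8 of the 10 genes.

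The plaque proteins held the largest part of the desmosome RNA, and Pkp1 and Dsp were the most abundant members at both ages. Pkp1 (plakophilin 1), which reinforces desmosomes of stratified epithelia, was at 660.5 FPKM in 2-month-old mice and 750.9 FPKM in 6-month-old mice. Its log2 difference was 0.18. By level it ranked 165 of 12652 genes at 2 months and 139 at 6 months. Pkp1 lies on chromosome 1 of GRCm38 from 135871395 to 135919207, on the minus strand, and its longest coding transcript has 14 exons. An unclassified transcript on the same strand, Gm36938, overlaps 2696 bases of the gene span. Strand could not separate reads of any exon the 2 genes share, and overlap of exons was not examined.

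Desmoplakin, the link from the plaque to keratin filaments, had the second largest difference of the 10 members. Dsp was at 610.8 FPKM in 2-month-old mice and 746.9 FPKM in 6-month-old mice, a log2 difference of 0.29. That difference was larger than those of 96.3% of the 12652 genes. Relative to Pkp1, the level of Dsp was 0.925 at 2 months and 0.995 at 6 months. Dsp lies on chromosome 13 from 38151294 to 38198577, on the plus strand, and its longest transcript of 9592 bases has 24 exons. An unclassified transcript on the opposite strand, Gm10129, overlaps the first 499 bases of the gene.

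Plakoglobin, which serves in desmosomes and in adherens junctions, was lower in level than its plaque partners. Jup was at 371.8 FPKM in 2-month-old mice and 403.5 FPKM in 6-month-old mice, a log2 difference of 0.12. Its close relative Ctnnb1 (beta-catenin), the arm-repeat protein of adherens junctions and of Wnt signalling, was at 350.9 and 349.6 FPKM. The ratio of Jup to Ctnnb1 was thus 1.06 at 2 months and 1.15 at 6 months. Jup lies on chromosome 11 from 100368958 to 100397763, on the minus strand, with 14 exons. Together, Dsp, Jup and Pkp1 summed to 1643 FPKM in 2-month-old mice and 1901 FPKM in 6-month-old mice, a ratio of 1.16.

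RefSeq promoter windows were matched for 2 of the 10 members, Dsp and Jup. They are shown because the study concerned AP-1 factors, whose binding letters TGANTCA were searched in them. The sequences are those of GRCm38.p6 in the direction of the gene, they end at the base before the outermost start of the gene in RefSeq, and capitals mark CpG dinucleotides.
Dsp, chr13:38151044-38151293, plus strand: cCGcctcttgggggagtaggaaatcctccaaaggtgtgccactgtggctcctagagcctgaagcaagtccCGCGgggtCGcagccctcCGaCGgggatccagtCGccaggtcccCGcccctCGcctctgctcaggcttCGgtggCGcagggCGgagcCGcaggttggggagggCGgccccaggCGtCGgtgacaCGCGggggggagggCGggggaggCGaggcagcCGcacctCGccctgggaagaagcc
Jup, chr11:100397840-100398040, minus strand: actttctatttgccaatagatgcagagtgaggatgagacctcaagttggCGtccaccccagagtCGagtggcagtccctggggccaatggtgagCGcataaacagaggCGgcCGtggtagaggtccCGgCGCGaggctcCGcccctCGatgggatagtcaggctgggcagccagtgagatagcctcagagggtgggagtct
In the full windows of 250 bases, Dsp held 22 CpG dinucleotides and Jup 13, where the median of 32851 windows was 6. The Jup window was set by a start further inside the gene than the outermost one. For Jup, 201 of the 250 bases are therefore printed, with 10 of the 13 CpG dinucleotides. The GC content was 72.4% for Dsp and 62.0% for Jup, and the median window had 52.4%. Neither window held TGANTCA on either strand, and 6.75% of all windows did. The letters AACCGGTT, known from Grainyhead-like factors of epithelia, were also in neither, and in 0.116% of all windows. This describes the letters of these windows and says nothing on whether such factors act on the genes.

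Among the desmogleins, Dsg3 was the main gene at both ages. Dsg3, known from the lower layers of skin and as the antigen of pemphigus vulgaris, was at 182.6 FPKM in 2-month-old mice. At 6 months it was at 194.5 FPKM. Its log2 difference was 0.09. It held 60.9% of the summed desmoglein FPKM at 2 months and 60.2% at 6 months.

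Desmoglein 1, which forms the upper-layer junctions of skin and is the antigen of pemphigus foliaceus, is encoded by neighbouring gene copies in the mouse. Dsg1a was at 68.9 FPKM in 2-month-old mice and 75.6 FPKM in 6-month-old mice, and its log2 difference was 0.13. Dsg1b was at 37.7 and 43.1 FPKM, a log2 difference of 0.19. Both copies were somewhat higher at 6 months. The separate values are uncertain, because 45.5% of the 50-base words of the longest Dsg1b transcript are also found in that of Dsg1a, and 31.6% of the words of Dsg1a are found in Dsg1b. Taken as a sum, Dsg1a and Dsg1b had 106.5 FPKM in 2-month-old mice and 118.7 FPKM in 6-month-old mice, a ratio of 1.11.

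Dsg2, the desmoglein that simple epithelia and heart muscle also carry, was the least abundant of the 10 members and the only one more than 1% lower at 6 months. It was at 10.8 FPKM in 2-month-old mice and 9.98 FPKM in 6-month-old mice, a log2 difference of -0.11, and 24.0% of all genes had a difference below that. Dsg3 was 16.8 times as abundant as Dsg2 at 2 months and 19.5 times at 6 months. A further gene, Gm16090, lies on the opposite strand across the last 6558 bases of the Dsg2 span. Reads of any shared exon cannot be told apart, since the library kit does not mark strand and the authors mapped with default settings. Overlap of exons was not examined here either.

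The desmocollins were more abundant than the desmogleins, at 491.5 against 299.99 FPKM at 2 months and 514.6 against 323.2 FPKM at 6 months. The desmocollin to desmoglein ratio was 1.64 at 2 months and 1.59 at 6 months. Dsc2, the most widely expressed desmocollin, was at 349.5 and 357.9 FPKM, a log2 difference of 0.03. It made up 71.1% of the desmocollin FPKM at 2 months and 69.5% at 6 months.

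Dsc3, the desmocollin of basal and lower layers of skin, had nearly the same value at both ages. It was at 86.4 FPKM in 2-month-old mice and 86.3 FPKM in 6-month-old mice, a log2 difference of -0.001 that turned positive under either scaling of the 6 month values.

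Dsc1, the desmocollin of the upper layers of skin, had the largest difference of all 10 members. It was at 55.6 FPKM in 2-month-old mice and 70.4 FPKM in 6-month-old mice, a log2 difference of 0.33, higher than in 97.2% of all genes. With a lower threshold of 25% on the same scale, which 2.95% of all genes passed upward and 4.23% downward, Dsc1 was the 1 member counted as higher and 0 were counted as lower. Its share of the desmocollin FPKM was 11.3% at 2 months and 13.7% at 6 months, and Dsc2 was 6.28 times as abundant as Dsc1 at 2 months and 5.09 times at 6 months.

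**Figure D2:**
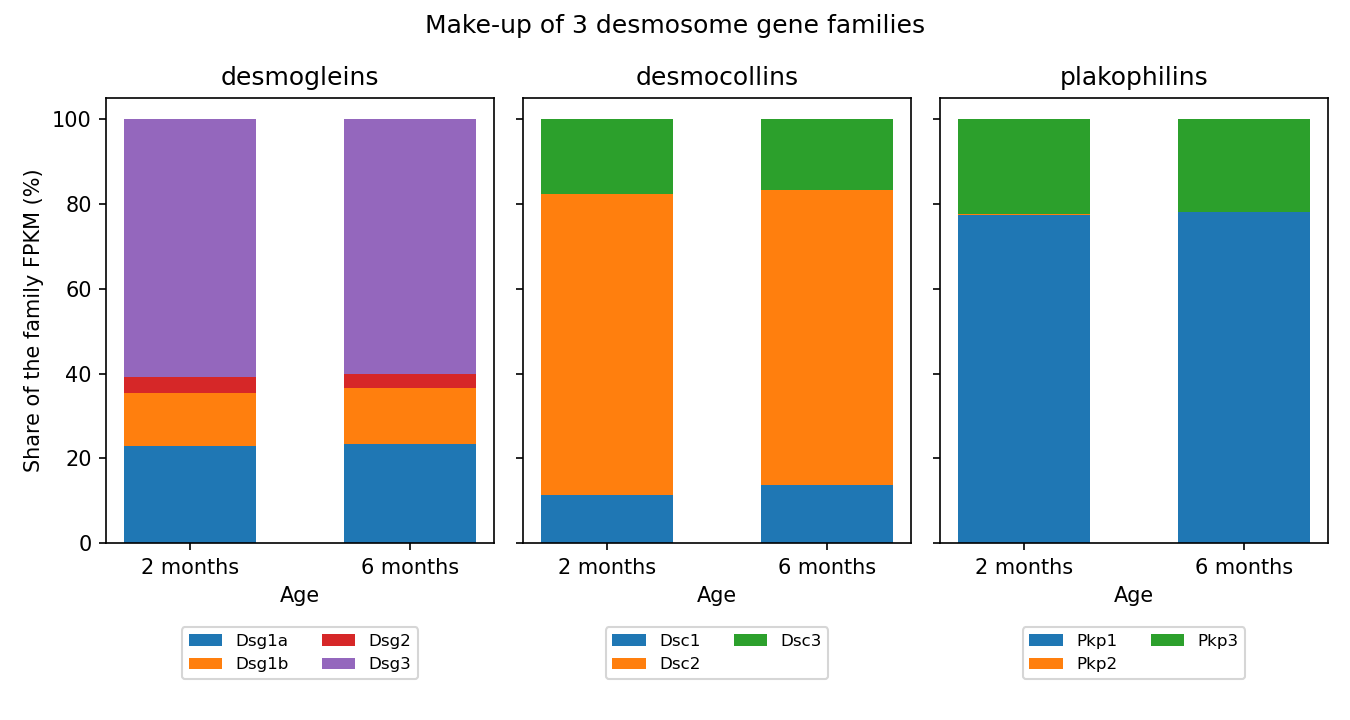
Share of each gene in the summed FPKM of its family, in percent, as stacked bars for 2 and 6 months in desmogleins, desmocollins and plakophilins. The plakophilins are Pkp1, Pkp2 and Pkp3, without Pkp4. Dsg3, Dsc2 and Pkp1 held the largest share at both ages, and no share differed by more than the 2.35 percentage points of Dsc1. Dsg1c and Dsg4, at 0.0154% or less, are not drawn.

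The 4 members best known from upper layers of skin, Dsg1a, Dsg1b, Dsc1 and Pkp1, were all higher at 6 months. Their median log2 difference was 0.19 and the ratio between their sums 1.14. Most of these sums was Pkp1, with 660.5 of 822.6 FPKM at 2 months and 750.9 of 940.0 FPKM at 6 months. Of the other 6 members, 4 were higher, the median was 0.06 and the ratio of the sums 1.12. Whether these groups of genes differ was not tested. In the same libraries, 7 of the 8 expressed genes listed as markers of the cornified layer were lower at 6 months. The list also holds Krt1 and Krt10, keratins of differentiating upper layers that are not particular to the cornified layer. Of the 8, 6 were lower by at least 1.5-fold (Lce1a1, Lce1b, Cdsn, Krt10, Lor and Ivl), and the summed level of the 8 was 1955 FPKM in 2-month-old mice and 930.2 FPKM in 6-month-old mice. Krt1 had a log2 difference of -0.57, short of 1.5-fold, and Casp14 was the marker with a higher value, at 7.87 and 8.30 FPKM. Of 5 listed markers of oral upper layers, 3 were expressed and above 0 at both ages. Krt78 and Sbsn were lower, with log2 differences of -0.47 and -0.22, and Spink5 was higher, at 0.06. The part of these markers in the desmosome values was not tested. In pooled tissue, fewer cells of a type and less RNA per cell cannot be told apart.

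The 7 cadherin members lie in a cluster of 643.6 kb on chromosome 18 of GRCm38, from 19960930 to 20604521. The desmocollins stand at one end on the minus strand in the order Dsc3, Dsc2 and Dsc1, and after a gap of 132.5 kb the desmogleins follow on the plus strand. In the order Dsg1c, Dsg1a, Dsg1b, Dsg4, Dsg3 and Dsg2, neighbours differed widely in level. Dsg1c was at 0.0375 FPKM in 2-month-old mice and 0.0497 FPKM in 6-month-old mice. Dsg4, the desmoglein of the hair shaft, was at 0.0309 and 0.0351 FPKM. These 2 genes, which are not among the 10 members, thus lay in the cluster far below every member. Dsg1c ends 25.8 kb before Dsg1a. Of its 50-base words, 26.2% are shared with Dsg1a and 24.2% with Dsg1b. Its low value thus depends only in part on how shared reads were assigned, since its remaining words are in neither transcript. No 50-base word was shared between the longest transcripts of Dsg2, Dsg3 and Dsg4, or among those of the 3 desmocollins.

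**Figure D3:**
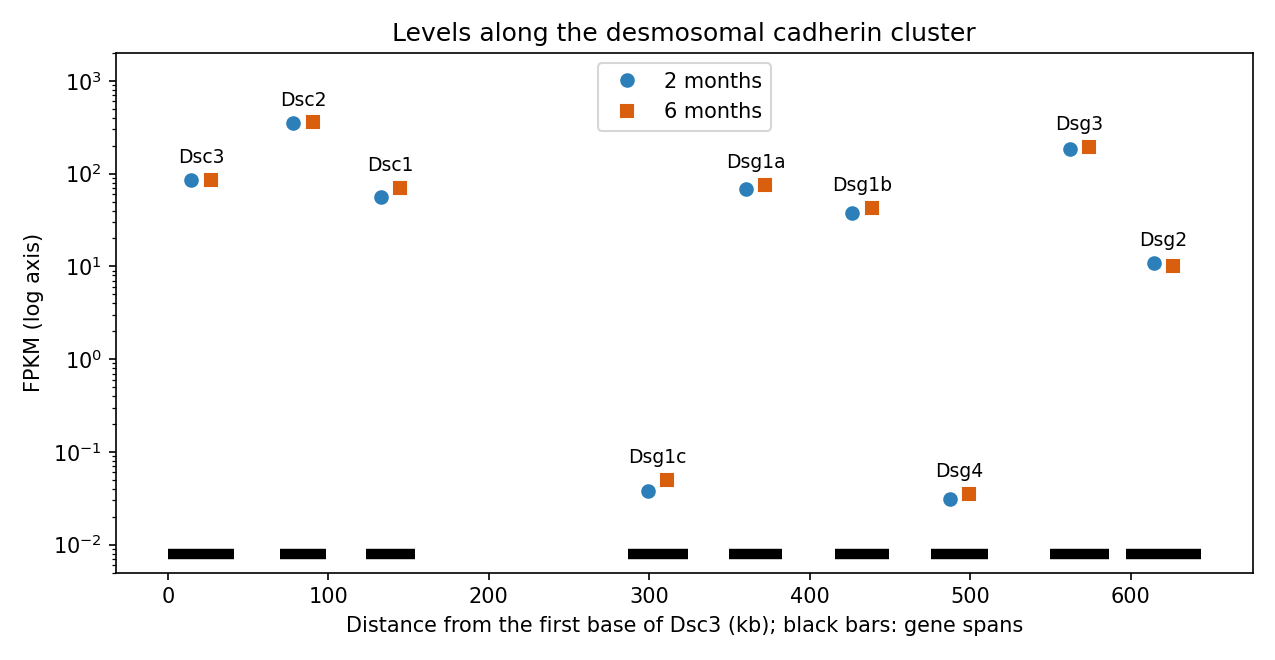
FPKM on a log axis against the distance from the first base of Dsc3 in kb, with circles for 2 months and squares for 6 months drawn side by side at the middle of each gene and black bars for the gene spans. The 7 members lie between about 10 and 358 FPKM at both ages, whereas Dsg1c and Dsg4 lie under 0.05 FPKM.

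Of 9 further desmosome genes, 7 were expressed, and 3 of these were higher and 4 lower at 6 months, with a median log2 difference of -0.07. Only 1 of the 7 passed 1.5-fold. That gene was Cdsn, which encodes corneodesmosin, the protein that modified desmosomes of the cornified layer carry on their outside. It was at 147.2 FPKM in 2-month-old mice and 63.9 FPKM in 6-month-old mice, a log2 difference of -1.19. Perp, a membrane protein of desmosomes and a target of p63, was the most abundant of them at 1465 and 1393 FPKM. Pkp3, the plakophilin found in all layers, was at 189.9 and 209.7 FPKM, and Pkp2, the plakophilin of heart and simple epithelia, at 2.24 and 1.86 FPKM. Pkp1 thus made up 77.5% of the summed FPKM of Pkp1, Pkp2 and Pkp3 at 2 months and 78.0% at 6 months. Pkp4, which was not part of that sum, was at 26.8 and 21.4 FPKM, a log2 difference of -0.32. The plakins Ppl and Evpl, which join desmosomes to the cornified envelope, had log2 differences of 0.27 and 0.21.

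Enzymes and inhibitors that act on desmosomal proteins were mostly lower at 6 months, with 8 of 9 lower and a median log2 difference of -0.15. Klk7, a protease that cleaves corneodesmosin and Dsc1, was the 1 gene past 1.5-fold on the log2(FPKM + 1) scale. It was at 39.1 FPKM in 2-month-old mice and 6.20 FPKM in 6-month-old mice, a log2 difference of -2.48. Klk14, a further kallikrein of the epidermis, was at 702.5 and 469.3 FPKM, and with a log2 difference of -0.581 it fell just short of the threshold. Spink5, the inhibitor of these kallikreins, was the gene of the list with a higher value, at 155.98 and 162.7 FPKM. Klk5, a protease of the same cascade, had the lowest level of the list at 2.103 and 1.154 FPKM, and its plain ratio was 0.549, although on the log2(FPKM + 1) scale its difference was -0.53 and did not pass. Adam10 and Adam17, which shed cadherins from the surface, had log2 differences of -0.02 and -0.01.

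Other adhesion structures were set beside the desmosome. In adherens junctions, the actin-bound junctions built on classical cadherins, 5 of 10 genes were higher, 5 were lower and 0 passed 1.5-fold, with a median log2 difference of -0.0007. Of these 10, Ctnnb1 had the highest level and Cdh3 the lowest, at 14.1 and 13.2 FPKM. A further listed gene, Pvrl3 (nectin-3), was at 0.777 and 0.685 FPKM, under the limit for expressed genes, and was not counted. Cdh1 (E-cadherin) was at 163.1 FPKM in 2-month-old mice and 166.3 FPKM in 6-month-old mice. The 7 desmosomal cadherins together had 4.47 times the FPKM of Cdh1 and Cdh3 at 2 months and 4.67 times at 6 months. In hemidesmosomes, which fix basal cells to the basement membrane, 5 of 6 genes were higher and 0 passed 1.5-fold, with a median of 0.22. The highest level was that of Col17a1, at 132.9 and 152.1 FPKM, and the lowest that of Dst, at 10.8 and 13.0 FPKM.

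**Figure D4:**
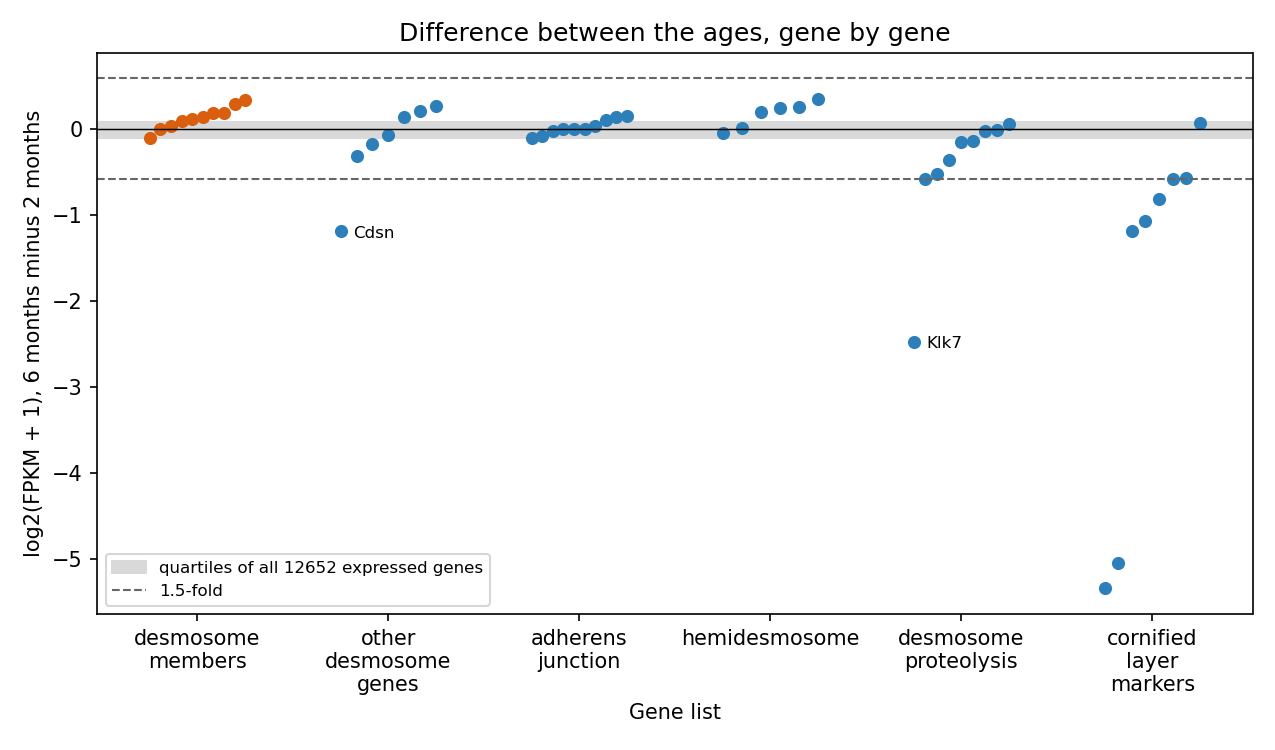
Difference in log2(FPKM + 1), 6 months minus 2 months, for each expressed gene of 6 gene lists, 1 point per gene. The grey band marks the quartiles of all expressed genes and the dashed lines 1.5-fold. All 10 desmosome members lie between -0.11 and 0.33. Cdsn, Klk7 and 6 genes of the cornified layer list, Cdsn among them, lie below the lower dashed line.

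The labelled cell type was checked against markers. All 9 taste cell markers were expressed and 0 passed 1.5-fold. At 6 months 5 were higher and 4 lower, with a median log2 difference of 0.05. Their sum was 502.2 FPKM in 2-month-old mice and 459.3 FPKM in 6-month-old mice, of which Krt8 held 234.3 and 196.7 FPKM. The basal keratinocyte markers summed to 3794 and 3841 FPKM, so the harvested cells also carried much RNA of genes known from lingual keratinocytes, and the desmosome values cannot be assigned to taste cells alone. The fibroblast collagens Col1a1, Col1a2 and Col3a1 were under 0.15 FPKM at both ages, and Dcn (decorin), at 42.0 and 27.3 FPKM, was lower by at least 1.5-fold. Skeletal muscle markers were low, at a sum of 9.03 and 20.4 FPKM over Acta1, Ckm, Tnnc2, Tnnt3 and Mb, all 5 higher by at least 1.5-fold at 6 months. The part of these markers in the desmosome values was not tested.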

How the data were processed

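Poly(A) RNA of isolated cells was sequenced, 3 pools per age. TopHat 2.0.7 (the GRCm38 genome, RefSeq gene models), Cufflinks 2.1.1 and Cuffdiff were the authors' tools. The deposited table holds 1 FPKM value per gene and age, computed by the authors over the 3 pools, and the library normalization is not given in the sources used here. Its rows name the 2 compared groups B and S, which were matched to 6 and 2 months by the sample titles. It also holds a p-value per gene from the authors' own comparison, which was not used.

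The older value of log2(FPKM + 1) minus the younger one gave each difference, a scale that understates those of low genes. Genes averaging 1 FPKM or more over both ages were kept as expressed. A gene was counted at 1.5-fold or more. No test was possible with 1 value per age. A value of 0 can be a failed estimate, and 79 of the 12652 genes kept were listed at 0 in 1 age, 76 of them small RNA genes. Without the 79, 1.34% of genes were lower by 1.5-fold and 0.811% higher. Such genes were left out of the counts of gene lists.

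The members and gene lists were chosen with earlier results of these data known. Named were all members, the genes of the lists past 1.5-fold and the highest and lowest of a list, and other list genes were named after their values were seen. Positions, exons and transcript sequences were those of GENCODE for GRCm38, promoters those of RefSeq for GRCm38.p6. Identity of proteins was not analysed here. The counting was tested on simulated data. Python 3.11.15, numpy 2.4.6, pandas 2.3.3 and matplotlib 3.10.9 were used.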

Additional observations from a re-analysis of the deposited data

How the results depend on the processing

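No paired analysis was possible because each age has a single value per gene, and for the same reason no replicate was left out. Without a spread between pools, a value was taken as moved when it differed by 0.1 or more on the log2 scale, and a count when it differed by over 1.5 times. Of 54 alternative values, 53 did not move. The exception was the number of members higher by at least 1.5-fold, which was 0 and became 1 at a threshold of 25%. Adding 0.1 in place of 1 before taking logs, multiplying the 6 month values by 1.03 to match the upper quartiles, and setting the median difference to 0 moved no member's log2 difference by more than 0.0426, although Dsc3 turned from lower to higher under both scalings. Many of the 53 outcomes were fixed by the settings, so their number is no measure of robustness. Scaling by 1.03 or 1.0095 shifted every member by less than the limit of 0.1. Adding 0.1 in place of 1 changed little at these levels, with -0.1182 in place of -0.1089 for Dsg2, the lowest member. The lowest member mean was 10.4 FPKM, so a filter of 5 FPKM or none dropped no member and left their median at 0.1256. Alternatives that concern the number of higher members were added after the data had been seen. What depth limits cannot be given, since depth is unknown.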

Other observations

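Keratins, whose filaments the desmosome holds, were mostly lower at 6 months. Of 16 listed, 12 were expressed and above 0 at both ages, and 11 of the 12 were lower, with a median log2 difference of -0.25. Krt10, a keratin of differentiating upper layers, was at 149.7 FPKM in 2-month-old and 70.5 FPKM in 6-month-old mice, and Krt76, a keratin of oral upper layers, at 351.6 and 82.4 FPKM, and these 2 were past 1.5-fold. Krt14, a keratin of basal cells, was the 1 keratin with a higher value, at 1287 and 1533 FPKM. Krt5, also a basal keratinocyte marker, was lower, at 2180 and 1962 FPKM. Krt4, at 7334 FPKM in the younger mice, was listed at 0 in the older ones, Krt6a was listed at 0 in the younger ones, and Krt13 at 0 in both, so their differences were not read. No desmosome member was listed at 0.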
